A study of Mus musculus with 2 samples.

Results

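The genes described here are the Slc25a genes, which encode mitochondrial carriers. They were taken as all genes whose only symbol in the array's annotation is Slc25a and a number, whatever their values, which gave 44 of 18193 genes on the array, with 93 probe sets. Expression was measured on 1 Affymetrix array for each of 2 kinds of spleen cells, both sorted from C57BL/6 mice bearing hepatocellular carcinoma, a liver cancer. The first array holds Ter119-positive, CD45-negative cells, called CD45-negative cells here. Ter119 marks red cells and their precursors, and CD45 marks white cells. The second array holds the CD45-positive cells of these mice, the control. The age and number of the mice, any pooling, and the use of Ter119 in the second gate are not given in the sources used here, and every animal carried a tumour, so no tumour-free spleen enters the comparison.

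The carriers sit mostly in the inner mitochondrial membrane, are built from repeats of a pair of membrane-spanning helices, and exchange or import nucleotides, phosphate, amino acids, carboxylates, metal ions and cofactors between cytosol and matrix. Red cell precursors make haem, whose first and last steps take place in the matrix, so that iron and glycine must enter there. Mature red cells lose their mitochondria.

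The data are linear intensities in arbitrary units, 1 for each probe set on each array. A gene counted as measured when its intensity was above 101.1 in at least 1 array, the 95th percentile of 80 probe sets for odour and vomeronasal receptor genes. A difference is CD45-negative minus CD45-positive log2 intensity, with values under the detection level set to it. Values of a gene's further probe sets, and ranges over probe sets, are given with no level applied, and dim ones are not secure. Each group had 1 array and so no replicate. No test was possible, no p-value is given, and a difference of at least 4-fold (2 on the log2 scale) is a rule of size only. Measured probe sets of the same Slc25a gene differed by an SD of 0.62 on the log2 scale over 18 genes, with the detection level applied. Over all genes with several measured probe sets this SD was 0.83. Neither is replicate error, and ranges with no level applied can be far wider. In bulk samples, fewer cells of a type and less RNA per cell cannot be told apart.

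The sort showed in its markers. All 13 erythroid markers were at least 4-fold higher in the CD45-negative array (median difference 6.12), with intensities of 6571 to 99589 against 127.4 to 3562. The white cell markers were lower, all 16 by 4-fold or more (median -5.64), with 18.4 to 1206 against 8416 to 41574, and Ptprc, which encodes CD45, had 422.7 against 32147. Other lists moved with the groups as well. Of 11 megakaryocyte and platelet markers, 10 were at least 4-fold higher (summed intensity 43005 against 2505), and so were all 14 cell division markers (286864 against 10727). Of 17 stromal, endothelial and liver markers, 12 did not reach the detection level in CD45-negative cells and 13 did not in CD45-positive cells. The part of these other cells and of cell division in the Slc25a results was not tested.

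Of the 44 Slc25a genes, 38 were measured, 30 of them in both arrays, 3 only in the CD45-negative array and 5 only in the CD45-positive array. Slc25a37, Slc25a39, Slc25a51, Slc25a38 and Slc25a24 were at least 4-fold higher in the CD45-negative cells, which is 13.2% of the measured members, against 8.31% of all 11793 measured genes. Slc25a4, Slc25a45, Slc25a53, Slc25a15 and Slc25a20 were at least 4-fold lower, again 13.2%, against 16.8% of all measured genes. At a 2-fold threshold 9 members (23.7%) were higher, against a background of 16.8%, and 12 (31.6%) were lower, against 33.3%. The median difference of the measured members was -0.43, and that of all measured genes -0.26. As a family the carriers thus lay near the whole array, and the counts do not set them apart. Within the family the differences ran from 4.68 to -3.92.

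**Figure D1:**
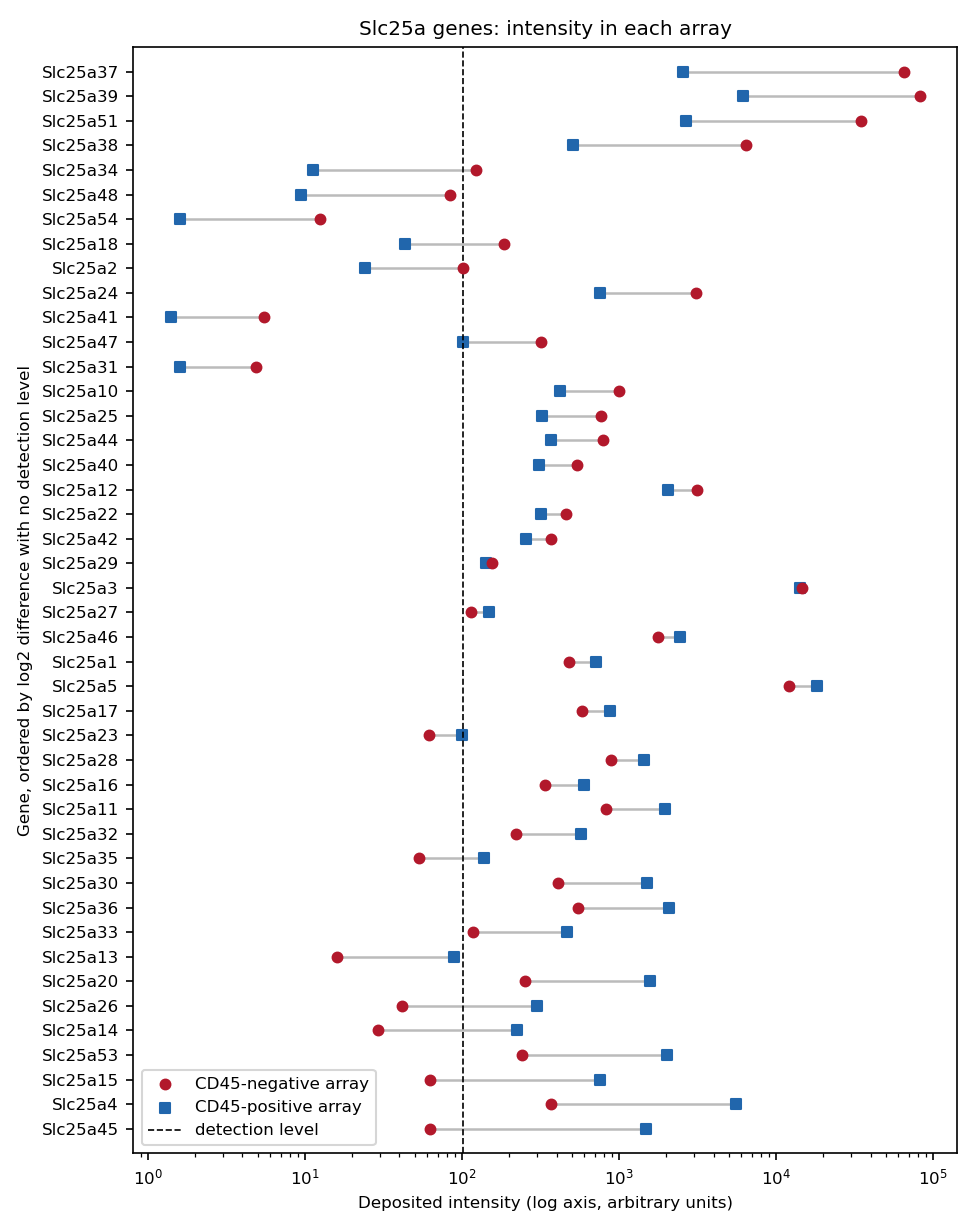
Intensity of all 44 Slc25a genes in the CD45-negative array (circles) and the CD45-positive array (squares) on a log axis, each by its brightest probe set, ordered by the log2 difference, with the detection level of 101.1 dashed. Slc25a37, Slc25a39, Slc25a51 and Slc25a38 stand at the top with circles far right of the squares, and Slc25a4 and Slc25a45 at the bottom with the opposite order.

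The carriers of iron, of cofactors and of the glycine used for haem, described here as 1 group, held 4 of the 5 higher genes. These were 36.4% of its 11 measured genes, against 8.31% of all measured genes. It held no gene at least 4-fold lower, against 16.8% of all measured genes. The group joins unlike carriers and was formed with earlier results of these data known, so its share is description only. Slc25a37 encodes mitoferrin-1, which brings iron into the matrix of red cell precursors for haem and iron-sulfur clusters. Its intensity was 65602 in CD45-negative cells against 2556 in CD45-positive cells. This was the largest difference among the 38 measured Slc25a genes, 25.7-fold (4.68 on the log2 scale), and 1.29% of all measured genes had a difference as high or higher. Slc25a38 encodes the carrier that supplies glycine for the first step of haem synthesis, and its loss causes a sideroblastic anaemia in humans. It had 6442 against 506.9, a 12.7-fold difference (3.67). Each of these genes rests on 1 probe set.

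Slc25a39 encodes a carrier needed for the import of glutathione, the main thiol of the cell, into the matrix. Its brightest probe set gave 81970 in CD45-negative cells against 6128 in CD45-positive cells, 13.4-fold higher (3.74). The 4 of its 5 probe sets above the detection level gave differences from 3.74 to 4.71, so the value that stands for the gene is the smallest of them. Slc25a51, the carrier that takes NAD+ into mitochondria, had 34732 against 2675, 13.0-fold higher (3.70). Its 3 probe sets ran from 3.12 to 3.70. In both genes every measured probe set was more than 8 times as bright in the CD45-negative cells.

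The other carriers of this group did not pass 4-fold in either direction at the common detection level. Slc25a28 encodes mitoferrin-2, the iron carrier used outside the red cell lineage. It had 884.5 in CD45-negative cells against 1438 in CD45-positive cells, a difference of -0.70. The differences of the mitoferrin genes were thus 5.38 apart on the log2 scale. Slc25a40, the relative of Slc25a39, had 536.8 against 308.9 (0.80), and that pair was 2.94 apart. Slc25a42, which carries coenzyme A, had 369.6 against 256.2 by its brightest probe set (0.53). Its second probe set gave 2.98 with no level applied, but was dim, at 102.6 against 13.0, so this value is not secure. Slc25a17, a carrier of the peroxisome rather than the mitochondrion, had 579.6 against 874.8 (-0.59), and Slc25a16 had 337.5 against 595.9 (-0.82). Slc25a32, linked to the import of folate and FAD, was 2.61-fold lower at 220.9 against 576.1. Slc25a26, which imports the methyl donor S-adenosylmethionine, was under the level in the CD45-negative array, at 41.8 against 300.7, and so at least 2.36-fold lower. That probe set is marked as shared between genes, and without it Slc25a26 was not measured.

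The promoters of higher carriers are shown beside those of carriers that were not higher, to let their letters be compared. RefSeq promoter windows of GRCm38.p6 were given for 34 of the 44 genes, and the 250 bases before the gene start are printed 5′ to 3′. Capitals mark matches, on either strand, to CCNCNCCC, a motif of the KLF factor family to which the erythroid factor Klf1 belongs. Slc25a38 and Slc25a39 were at least 4-fold higher, Slc25a40 is the paralogue of Slc25a39, and Slc25a4 was at least 4-fold lower.
Slc25a38, chr9:120110132-120110381, plus strand: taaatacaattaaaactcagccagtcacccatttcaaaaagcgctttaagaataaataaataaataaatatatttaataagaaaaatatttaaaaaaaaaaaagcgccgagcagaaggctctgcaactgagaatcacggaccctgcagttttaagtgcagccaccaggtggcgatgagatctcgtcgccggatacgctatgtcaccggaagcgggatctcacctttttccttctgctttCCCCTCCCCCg
Slc25a39, chr11:102407518-102407767, minus strand: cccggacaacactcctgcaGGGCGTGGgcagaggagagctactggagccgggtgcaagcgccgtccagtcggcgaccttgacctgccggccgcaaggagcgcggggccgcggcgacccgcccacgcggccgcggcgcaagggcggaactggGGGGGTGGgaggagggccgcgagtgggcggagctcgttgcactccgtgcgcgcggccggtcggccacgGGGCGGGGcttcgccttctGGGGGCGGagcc
Slc25a40, chr5:8422588-8422837, plus strand: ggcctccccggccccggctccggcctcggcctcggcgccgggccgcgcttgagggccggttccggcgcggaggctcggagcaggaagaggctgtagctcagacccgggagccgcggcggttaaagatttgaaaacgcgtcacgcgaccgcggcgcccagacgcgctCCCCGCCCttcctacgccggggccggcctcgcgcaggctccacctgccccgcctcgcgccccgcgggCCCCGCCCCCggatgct
Slc25a4, chr8:46211063-46211312, minus strand: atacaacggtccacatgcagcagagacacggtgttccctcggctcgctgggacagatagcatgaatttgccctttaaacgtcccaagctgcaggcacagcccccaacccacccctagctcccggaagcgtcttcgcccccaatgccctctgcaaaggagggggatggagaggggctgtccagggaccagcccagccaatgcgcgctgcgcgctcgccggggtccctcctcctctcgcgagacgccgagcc

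The Slc25a38 window held 2 overlapping matches near the gene start, the Slc25a39 window 4, the Slc25a40 window 3 and the Slc25a4 window 0. The Slc25a4 window does not stand for the lower genes, since that of Slc25a20, also lower and not printed, held 3. Of the higher genes with a window, 3 of 3 (Slc25a24, Slc25a38, Slc25a39) had a match, and of the lower genes 3 of 5 (Slc25a15, Slc25a20, Slc25a53). So had 14 of 21 genes in neither class and 4 of 5 that were not measured. Most of the 25 matches of Slc25a24 overlapped in 1 run of C. The higher genes Slc25a37 and Slc25a51 had no window. Such a match lay in 45.9% of all 32851 promoter windows of this length and in 29 of 43 windows of the Slc25a genes (67.4%). The GATA motif, searched as AGATAA or TGATAA, was in 3 of the 43 windows (6.98%) and in 16.6% of all windows. The 3 genes that held it were Slc25a12, Slc25a5 and Slc25a53, none of them among the higher genes. A window of this length says nothing of elements farther away. Searched in the same way, GCATGCGC of the NRF1 factor was in 2 windows, CCGGAAG of ETS factors in 6 and the E-box CAGCTG in 4, against 2.26%, 6.91% and 13.0% of all windows.

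Of the 7 measured carriers of nucleotides and phosphate, 1 passed 4-fold upward and 1 downward. Each is 14.3%, against 8.31% upward and 16.8% downward of all measured genes. Slc25a4 and Slc25a5 encode ADP/ATP translocases, which exchange matrix ATP for cytosolic ADP. The isoform encoded by Slc25a4 prevails in heart and muscle, and that of Slc25a5 in dividing cells. Slc25a4 had 366.3 in CD45-negative cells against 5537 in CD45-positive cells. It was 15.1-fold lower (-3.92), the lowest of the members measured in both arrays, and its 3 measured probe sets ran from -3.92 to -3.28. Slc25a5 had 12115 against 18207, a difference of -0.59, and its 8 probe sets ran from -0.91 to 0.05. The differences of these isoform genes were 3.33 apart. Some of their probe sets are marked as able to bind related sequences. The third translocase gene, Slc25a31, of the testis, reached the level in neither array.

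Slc25a3 encodes the carrier that brings phosphate to the matrix for ATP synthesis. It had 14616 against 14181, a difference of 0.04, but its second, dim probe set gave -1.05, and quantile normalization gave -0.62 for the first. The carriers of ATP-Mg and phosphate, which are gated by calcium, were higher where measured. Slc25a24 had 3069 against 752.8, 4.08-fold higher (2.03), just past the threshold, and its second probe set gave 1.54. The mean of its probe sets, 1.79, fell short of 4-fold. Slc25a25 had 764.2 against 325.7 (1.23), with 3 probe sets from 1.23 to 2.35. Slc25a23 and Slc25a41 were under the level in both arrays. Both carriers of pyrimidine nucleotides were lower by a little less than 4-fold. Slc25a36 had 551.7 against 2086 (-1.92), with probe sets from -1.92 to -0.86. Slc25a33 had 118.1 against 464.2. Its CD45-negative value lay above the common detection level but under 127.3, the 95th percentile that the receptor genes gave in that array alone, so it was at least 3.65-fold lower.

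**Figure D2:**
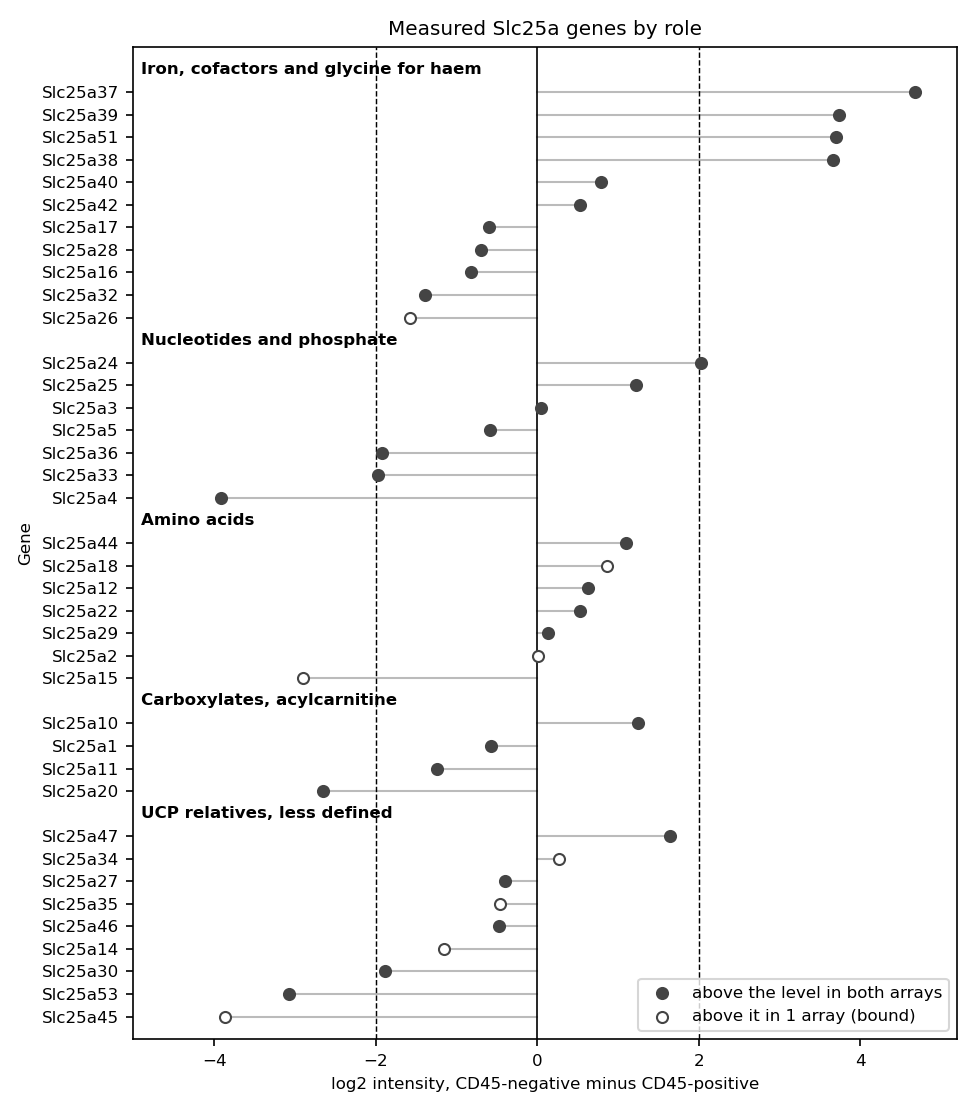
Difference of each of the 38 measured Slc25a genes (log2 intensity, CD45-negative minus CD45-positive), grouped by what the carriers transport, with 4-fold lines dashed and open circles for bounds. The 4 genes right of 3 all carry iron or cofactors or supply glycine to haem, and the other 7 of that group lie between -1.57 and 0.80.

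Of the 7 measured amino acid carriers other than Slc25a38, 1 (14.3%) passed 4-fold downward, against 16.8% of all measured genes. None passed upward, against 8.31%. Slc25a15, the ornithine carrier of the urea cycle and of polyamine precursors, had 62.3 in the CD45-negative array, under the level, against 755.1 in the CD45-positive array, so it was at least 5.93-fold lower. Its second probe set was under the level in both arrays, and the mean of its probe sets gave -1.26. Slc25a2, a related ornithine carrier, lay at the level, with 102.0 against 24.1. The aspartate-glutamate carriers serve the malate-aspartate shuttle. Of these Slc25a12 had 3151 against 2041 (0.63), with its other measured probe set at -0.12, and Slc25a13 reached the level in neither array. The glutamate carriers differed little or were dim: Slc25a22 had 459.8 against 317.4 (0.53), and Slc25a18 had 184.6 against 43.1, at least 1.83-fold higher. Slc25a44, which carries branched-chain amino acids, had 791.9 against 370.7 (1.10), and another bright probe set, with 883.8 against 319.9, gave 1.47. The last of its 3 probe sets gave -2.86 with no level applied, but was dim, with 15.4, under the level, against 111.5. The mean of its probe sets was -0.10, but that dim value enters it with no level applied. The direction over all 3 is thus not secure, while both bright probe sets were higher in the CD45-negative array. Slc25a29, a carrier of basic amino acids, has no settled direction, at 155.6 against 141.6 with probe sets from -4.40 to 0.33. The one at -4.40 was dim, with 5.2, under the level, against 109.6.

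Of the 4 measured carriers of carboxylates and acylcarnitine, 1 (25%) was at least 4-fold lower, against 16.8% of all measured genes. None was 4-fold higher, against 8.31%. Slc25a20 takes acylcarnitines into the matrix, where their fatty acids are oxidised. It had 252.9 in CD45-negative cells against 1586 in CD45-positive cells, 6.27-fold lower (-2.65), and its second probe set gave -1.40. Slc25a11, the oxoglutarate-malate carrier, was 2.36-fold lower at 830.4 against 1963. Slc25a1, which exports citrate for lipid synthesis, had 478.1 against 710.9 (-0.57, and 0.03 after quantile normalization). The dicarboxylate carrier gene Slc25a10 had 995.7 against 419.0 (1.25), with a second, dimmer probe set at 0.11. Of the malate-aspartate shuttle's carriers, Slc25a11 was thus dimmer and Slc25a12 brighter, neither of them by 4-fold.

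The less defined carriers and the relatives of the uncoupling proteins held 2 lower genes and no gene at least 4-fold higher, among 9 measured. The lower ones are 22.2%, against 16.8% of all measured genes, of which 8.31% were higher. Slc25a45 had 62.4, under the level, against 1478, at least 11.6-fold lower on its only probe set. Slc25a53 had 240.0 against 2012, 8.38-fold lower (-3.07), but its second probe set, with 86.6 against 130.0, gave -0.59, and the mean of its probe sets (-1.83) did not reach 4-fold. Slc25a30, first described in kidney, was 3.69-fold lower at 409.9 against 1513. Slc25a14, an uncoupling protein relative of brain, had 29.3 against 224.9, at least 1.77-fold lower. Slc25a47, a carrier known from liver, had 319.6 against 101.8 (1.65). Its value in the CD45-positive array lay at the detection level, and its only probe set is marked as shared between genes. Slc25a46, which sits in the outer membrane and takes part in the shaping of mitochondria, had 1760 against 2437 (-0.47), and its second probe set gave 0.03. Slc25a27, Slc25a34 and Slc25a35 were dim, at 52.9 to 122.0 in the CD45-negative array against 11.2 to 149.4 in the CD45-positive array. Slc25a48 and Slc25a54 were under the level in both.

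**Figure D3:**
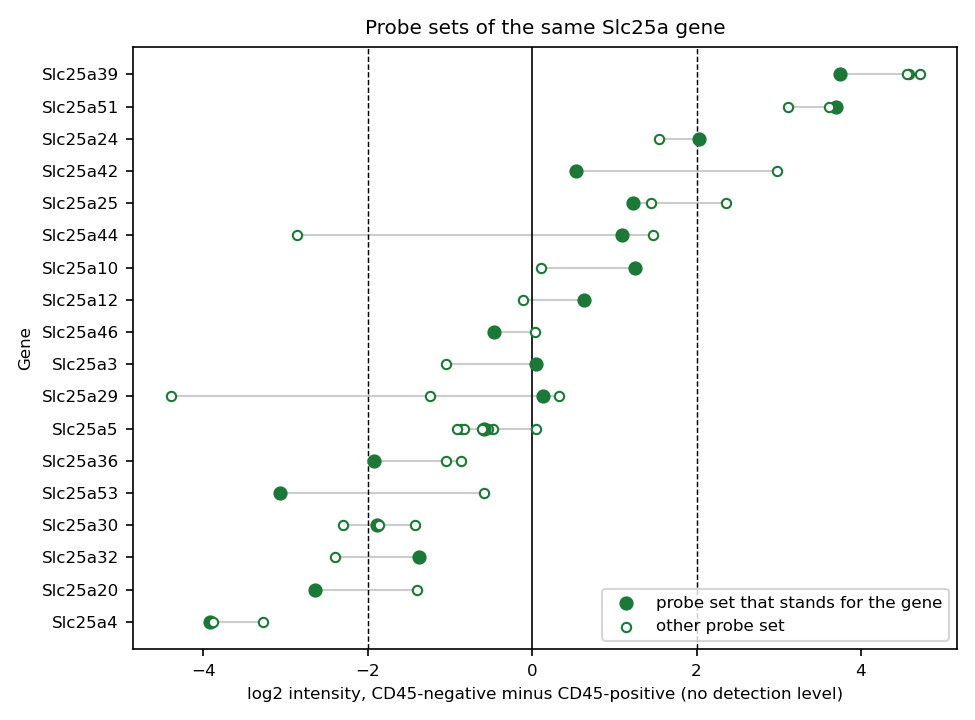
Difference of every probe set above the detection level (log2 intensity, CD45-negative minus CD45-positive, with no level applied) for the 18 Slc25a genes that have several, with the probe set that stands for the gene filled and 4-fold lines dashed. Probe sets of Slc25a39, Slc25a51 and Slc25a4 lie close together beyond 4-fold, while those of Slc25a44 and Slc25a29 lie on both sides of 0.

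Of the 18 Slc25a genes with several measured probe sets, 6 had probe sets on both sides of 0 with no level applied. In 1 of these, Slc25a44, probe sets passed 2-fold in opposite directions, but the downward one was dim, with 15.4, under the level, against 111.5. None of the 6 was among the genes at least 4-fold higher or lower. Quantile normalization raised the median of all measured genes by 0.27 and that of the members to -0.046, but it did not move all genes alike. Slc25a39 and Slc25a5 came out lower, at 3.28 and -1.18, and Slc25a10 and Slc25a16 higher, at 1.78 and -0.11. The same 5 higher and 5 lower Slc25a genes passed 4-fold under it, and Slc25a37 then differed by 4.46.

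Genes around the higher carriers were described in the same way, from lists of their pathways. Of all measured genes, 8.31% passed 4-fold upward and 16.8% downward. Among the 8 measured haem enzymes, 7 (87.5%) passed 4-fold upward and 1 (12.5%) downward (median 4.65). In the sentences on these lists, each gene stands by its brightest probe set. Alas2, which condenses the glycine brought by Slc25a38 in red cell precursors, had 69687 in the CD45-negative array against 1082 in the CD45-positive array, and Fech, which inserts the iron, 77605 against 1976. Alad and Uros, of the steps between them, had 36100 against 1440 and 15960 against 520.5. The lower gene was Alas1, the form of other tissues, with 160.8 against 917.1 (-2.51), while its second probe set gave -0.41. Of the mitoferrin genes too the erythroid form was brighter. The general form, Slc25a28, was 1.63-fold dimmer on its only probe set (-0.70, and -0.42 after quantile normalization). The size of -0.70 lies between the spread between probe sets over Slc25a genes (0.62) and that over all genes (0.83). Neither spread is replicate error. Of 12 measured genes of iron-sulfur cluster assembly, 6 (50%) passed 4-fold upward and 1 (8.33%) downward (median 2.04). Glrx5 had 72032 against 5517, Isca1 42699 against 3217 and the scaffold gene Iscu 22760 against 4353. Iba57, of the late steps, had 1396 against 187.9, while the ferredoxin gene Fdx1 had 173.7 against 1056. Of 8 genes of glutathione and the m-AAA protease, 5 (62.5%) were at least 4-fold higher and 0 lower (median 2.24). Among them were Gclm, with 25913 against 658.5, and Gclc, with 8746 against 1405, both of the first step of glutathione synthesis. Gpx4, which uses glutathione to reduce lipid peroxides, had 31108 against 4962. Afg3l2, a protease that degrades the Slc25a39 protein, had 3117 against 591.9.

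Other transport genes of the mitochondrion differed in both directions too. The shares over all measured genes were 8.31% upward and 16.8% downward by 4-fold. Of 17 other inner membrane transport genes, 3 (17.6%) passed 4-fold upward and 1 (5.88%) downward at the common detection level (median -0.51). The higher ones were Abcb10, a partner of mitoferrin-1, with 16545 against 593.3, Abcb6 with 6431 against 248.9, and Tmem14c, which serves porphyrin transport, with 26608 against 2387. The lower one was the sodium-calcium exchanger gene Slc8b1, with 71.3, under the level, against 502.2, which is at least 3.95-fold lower, and so short of 4-fold, against the CD45-negative array's own level of 127.3. The calcium uniporter gene Mcu (558.0 against 377.8) and the pyruvate carrier gene Mpc1 (2811 against 4014) were within 2-fold. A list of outer membrane channels and genes named with them, not all of transport, had 8 measured genes. Of these Tspo2 (7.25), which is also among the erythroid markers used here, and Hk1 (2.81) were at least 4-fold higher. Hk2 (103.8 against 429.1) was 4-fold lower at the common level but only at least 3.37-fold lower at the CD45-negative array's own level. Tspo, with 16634 against 4407, was 3.77-fold higher (1.92), and its 3 probe sets ran from 1.92 to 2.40. The outer membrane channel genes Vdac1, Vdac2 and Vdac3 lay at 0.85, -0.54 and 0.90. Of the 3 measured family members under other symbols, Mtch1 had 623.4 against 1294 (-1.05) and Mtch2 2766 against 2020 (0.45, with 4 probe sets from -1.61 to 0.63), and Ucp3 was dim at 125.9 against 69.8.

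Again, the counts stand beside 8.31% of all measured genes 4-fold higher and 16.8% lower. Of 14 measured genes of the machinery that imports and inserts the carriers, 0 passed 4-fold in either direction by their brightest probe sets (median -0.51). Timm9, a chaperone of the intermembrane space, had the largest such difference, with 132.4 against 311.3 (-1.23), and its second probe set gave -3.86. Tomm70a, a receptor of the outer membrane, had 1254 against 2319 (-0.89), but its 4 probe sets reached -2.63 and their mean was -1.96. Tomm20 had 12876 against 25027 (-0.96) and Timm10b 2515 against 4544 (-0.85). Timm10, whose product pairs with that of Timm9, had 2339 against 1749 (0.42), and the insertase gene Timm22 717.8 against 837.7 (-0.22). Of 84 respiratory chain and ATP synthase genes, assembly factors included, 2 were at least 4-fold higher and 5 lower (median 0.21, and -0.12 after quantile normalization). Cox6b2, the testis form of a cytochrome oxidase subunit, had 15449 against 297.7 (5.70), the largest difference of that list. Among the lower ones were Cox7c with 243.3 against 1324, Ndufb5 with 1200.2 against 6149, and Atp5g2 with 2573 against 13220, whose second probe set gave 0.17. Another, Ndufaf5, was only at least 3.24-fold lower at the CD45-negative array's own level. Of 76 mitochondrial ribosomal protein genes, 0 passed 4-fold upward and 6 downward (median -0.55). The lower ones are 7.89%, a smaller share than the 16.8% of all measured genes. Mrps35, Mrpl24, Mrpl19 and Mrps6 lay farthest from 0, Mrps35 with 129.9 against 1499, Mrpl24 with 1026 against 5701, Mrpl19 with 231.2 against 1236, and Mrps6 with 140.0 against 693.7. Of 181 measured genes of all other Slc families, 27 (14.9%) passed 4-fold upward and 30 (16.6%) downward, 27 of these also at the CD45-negative array's own level, with a median of -0.02 (0.35 after quantile normalization). The Slc25a genes were therefore closer in these shares to other Slc genes than to the respiratory chain, of which 2.38% and 5.95% passed 4-fold, but whether the lists differ was not tested.

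**Figure D4:**
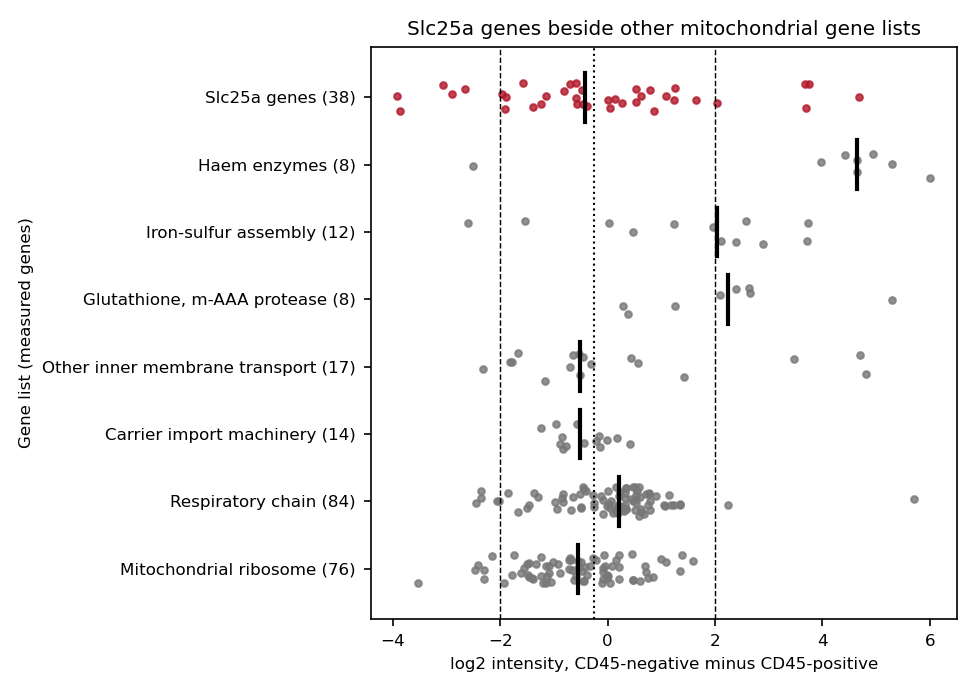
Differences (log2 intensity, CD45-negative minus CD45-positive) of the measured Slc25a genes and of 7 other lists of mitochondrial genes, with list medians as bars, the median of all measured genes (-0.26) dotted and 4-fold lines dashed. Slc25a genes spread on both sides of 0 around a median of -0.43, while the haem enzymes centre on 4.65 and the import machinery, by its brightest probe sets, stays within 2-fold except for Timm9.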

How the data were processed

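RNA of 2 sorted spleen cell samples was measured on 1 array each. The authors' deposited table holds 1 intensity per probe set on a linear scale. Total RNA was labelled with biotin by a 3' in vitro transcription kit, per the labels' protocols. The submitters' processing notes name GCRMA and Partek 6.6, without their roles. The step that made the values is not settled, and the table has no detection calls or saturation flags. Median intensity was 85.1 in CD45-negative cells against 87.8 in CD45-positive cells.

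Of 45037 probe sets, 34945 had 1 symbol in GEO's platform annotation, 932 several and 9160 none. Only those with 1 symbol were used. All 44 Slc25a genes matched the RefSeq table (GRCm38.p6) by Entrez identifier with 0 symbols changed. Intensities were taken to log2 with no pseudocount, and each gene's probe set with the highest mean log2 value stood for it. Lower bounds use, where the CD45-negative value is dim, that array's own 95th percentile of the receptor probe sets, 127.3, and otherwise the common level of 101.1. Of 18193 genes, 9861 were above the common level in CD45-negative cells and 10204 in CD45-positive cells. The number of arrays limits the precision of every value.

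The members, gene lists and thresholds were chosen with earlier results of these data known. Named were all members and, of each other list, the 4 with the largest differences and the steps beside a carrier, as far as probe sets with 1 symbol held them. Alternatives were the mean of probe sets, leaving out shared or cross-binding probe sets, quantile normalization, centring, other detection levels and a 2-fold threshold. Python 3.11.15, numpy 2.4.6, pandas 2.3.3 and matplotlib 3.10.9 were used, and the code was tested on simulated data.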

Additional observations from a re-analysis of the deposited data

How the results depend on the processing

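The counts of 5 higher and 5 lower Slc25a genes, and the same genes, were found without shared or cross-binding probe sets, after quantile normalization and median centring, with the 99th percentile or each array's own percentile as detection level, and after centring on genes measured in both arrays, a setting chosen after seeing the data. With probe sets averaged, 4 were higher, without Slc25a24, and 3 were lower, without Slc25a15 and Slc25a53. With no detection level, 10 were higher and 8 lower, the added ones all under the level in at least 1 array, and over all genes the counts were 2885 and 3293 in place of 980 and 1979. At 2-fold, 9 were higher and 12 lower, against 1976 and 3922 of all genes. The median difference of the measured members was -0.43. It was -0.046 after quantile normalization, -0.18 with a detection level for each array, -0.17 with none, and -0.15 after centring on genes measured in both arrays, while the median of all measured genes moved by 0.27, 0.09, 0.27 and 0.23. Of 304 values of single members under these alternatives, 12 moved by more than the spread between probe sets of a gene (0.83) and 0 of the 4-fold differences changed sign. Slc25a39 differed by 4.71 without cross-binding probe sets. No paired analysis was possible because each group had 1 array. Genes near the detection level, such as Slc25a2, Slc25a27 and Slc25a34, have no secure difference.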

Other observations

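Genes of other Slc families were named by their differences. Slc38a5, a transporter of glutamine and related amino acids, had 12430 in the CD45-negative array against 184.1 in the CD45-positive array (a log2 difference of 6.08), the largest among them. Slc6a9, the glycine transporter GlyT1, which red cell precursors use to take up glycine, had 14357 against 248.4 (5.85). Slc43a1, a carrier of large neutral amino acids, had 19064 against 403.6 (5.56), and Slc22a23 had 4349 against 98.6, under the detection level. The lowest was Slc50a1, a sugar transporter, with 102.2, close to the detection level, against 3035. Slc2a1, the glucose transporter GLUT1, had 114.3 against 2314. The CD45-negative values of Slc50a1 and Slc2a1 lay under that array's own level of 127.3, so both differences are bounds. Slc9a3r1, a scaffold protein gene that bears an Slc symbol and is no carrier, had 389.0 against 7782.

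A further probe set carries the names of Slc25a37 and the overlapping gene model Gm16867 and took no part in the comparison. Its intensity was 1762 in the CD45-negative array and 24.9, under the detection level, in the CD45-positive array, which is at least 17.4-fold higher.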
